A study of Mus musculus with 6 samples.

Results

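The genes described here make and burn acyl-CoAs, the activated form in which a cell handles fatty acids. They were chosen by name for their place in fatty acid oxidation: 47 gene symbols, from the carnitine shuttle to the thiolases, with the acyl-CoA synthetases, thioesterases and peroxisomal enzymes beside them. A gene counted as measured where an array probeset carried its symbol alone, and where a gene had several such probesets the one with the highest mean stood for it. This left 44 members among 19938 genes. Cpt1b and Acsl3 shared their probesets with other symbols, and Acsl1 is not analysed here.

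The samples were E14 mouse embryonic stem cells grown with LIF, a cytokine that keeps them undifferentiated, on a layer of fibroblasts arrested with mitomycin C. All groups shared this culture and its 15% fetal bovine serum. Untreated cells were set against cells given 0.5 mM VPA (valproic acid) or 0.2 mM NaBu (sodium butyrate) for 16 h, with 2 samples in each of the 3 groups and 1 array per sample. Both compounds inhibit histone deacetylases, and the series asked how low levels of them alter expression in these cells. The labels do not say whether replicates 1 and 2 were separate cultures, so the p-values measure the spread between these samples only, nor whether the fibroblasts were taken away before RNA was extracted. The doses differ, so that compound and dose cannot be told apart between VPA and NaBu. All values are log2 expression, on which a difference of 1 is a doubling, and levels on such an array are not set against each other between genes.

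Long-chain fatty acids are joined to coenzyme A, handed to carnitine to cross the inner mitochondrial membrane and then shortened in a repeating cycle of dehydrogenation, hydration, a second dehydrogenation and thiolysis. Short-chain acids such as butyrate enter mitochondria without carnitine and are activated inside. Butyrate is itself a fuel of this cycle, which it enters as butyryl-CoA, and valproate is a branched-chain acid that is partly degraded by the same enzymes and also forms esters with coenzyme A and carnitine. Embryonic stem cells in culture draw strongly on glycolysis and glutamine, and acetyl-CoA links these pathways to the acetylation of histones.

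The 6 arrays differed among themselves in ways that bear on every value given here. For 20 of the 44 members (45.5%) the highest of the 6 values was on VPA replicate 1, against 21% of all genes. The median member lay 0.16 above its own 6-array mean there and 0.07 below it on VPA replicate 2. On the other arrays the median deviation ran from -0.04 to 0.00. The feeder fibroblast markers, 19 of 20 measured, were also unevenly spread. Their mean level (replicate 1, then replicate 2) was 7.06 and 7.52 in the untreated samples. It was 6.83 and 7.71 with VPA and 7.12 and 7.79 with NaBu. It was thus lowest on VPA replicate 1 and higher in replicate 2 of each group. Pou5f1, a defining stem cell marker, lay between 11.12 and 11.90 on the 6 arrays, with both VPA values lowest, and the 18 stem cell markers had a mean level of 9.93 and 9.74 untreated, 9.54 and 9.47 with VPA and 9.90 and 9.67 with NaBu. In such bulk RNA, fewer cells of a type and less RNA per cell cannot be told apart. The part of the fibroblast share, or of any single array, in the values of the members was not tested.

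**Figure D1:**
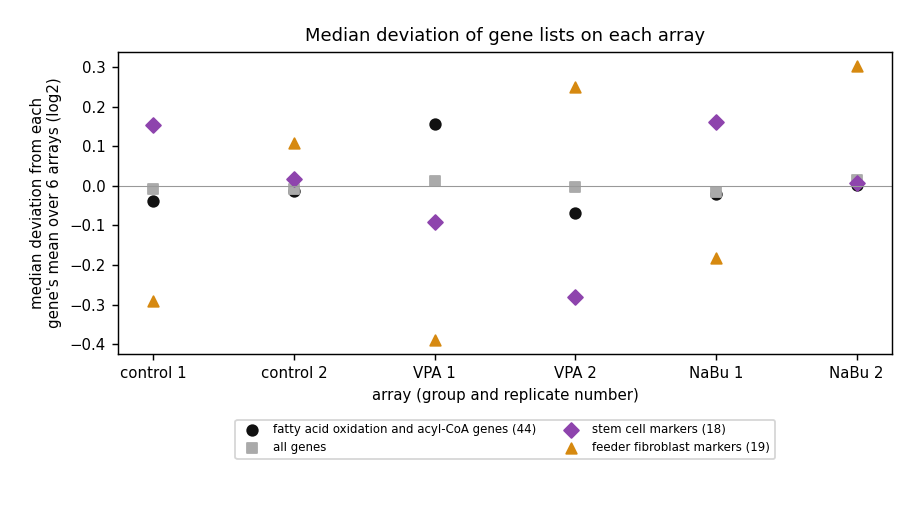
Median over each gene list (points) of the deviation of a gene from its own mean over the 6 arrays, in log2 units, on each array, for the 44 genes, all genes, 18 stem cell markers and 19 feeder fibroblast markers. The 44 genes stand at 0.16 on VPA replicate 1, where the fibroblast markers are lowest, and between -0.07 and 0.00 on the other arrays.

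With VPA, cytosolic acetyl-CoA synthetase (Acss2), the thiolase Acat1 and the long-chain dehydrogenase Acadl stood above the untreated cells in both replicates, and the synthetase Acsl5 and the hydratase Echs1 below them. Acss2 was the member with the largest difference, 0.69 or 1.61-fold (n = 2 per group). None of these differences passed the test across all genes: limma called 0 of the 44 members, and 0% of all genes, at a Benjamini-Hochberg adjusted p under 0.05. The smallest adjusted p of a member was 0.964 in limma. With the replicate number as a block limma again called 0 members and 0% of all genes, and its smallest adjusted p among members was 0.22. At an unadjusted p under 0.05 stood 4 members, Acss2 and Acadl above and Acsl5 and Echs1 below, against 4.92% of all genes. With the replicate block there were 7, now with Acat1, Acadsb and Eci1, against 13.2% of all genes.

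Of the 44 members, 18 were higher with VPA in both replicates, where 32% of all genes were, and 10 were lower in both, where 28% were. For the remaining 16 the replicates pointed opposite ways. Both VPA values lay above both untreated ones for 10 members and below for 6. Over all 19938 genes these counts were 3813 and 3107, so that the members lay near the background. The median difference over the members was 0.08 beside 0.01 over all genes, but it was 0.15 in replicate 1 and -0.04 in replicate 2. Without VPA replicate 1 the median was -0.06, and 0.01 with the replicate block. Among the members only Acss2 differed by more than 0.5 in either direction, and 574 of the 19938 genes did. Without VPA replicate 2 and with the replicate block, a fit with 1 residual degree of freedom in which the lone VPA sample is assumed to vary like the others, limma called 4 members (Acss2, Acat1 and Ehhadh higher, Acsl5 lower) and 3.88% of all genes.

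Activation to the coenzyme A ester comes first. Acss2 makes acetyl-CoA from acetate in cytosol and nucleus, where it serves lipid synthesis and histone acetylation. It measured 7.11 and 7.61 in untreated cells, 8.19 and 7.91 with VPA and 7.37 and 7.94 with NaBu. Both VPA values lay above both untreated ones, by 1.08 in replicate 1 and 0.30 in replicate 2, while the NaBu values overlapped the untreated. The group means were 7.36 ± 0.35 untreated, 8.05 ± 0.20 with VPA and 7.65 ± 0.40 with NaBu (SD, n = 2), and the 95% interval of the VPA difference ran from 0.08 to 1.30. Its mitochondrial counterpart Acss1 measured 6.87 and 7.18 untreated, 7.20 and 7.23 with VPA and 6.83 and 6.99 with NaBu. The VPA samples held the highest values of Acss1, by 0.33 and 0.05 over the untreated sample of the same number. The mean difference of 0.19 was about the size of the SD of the untreated pair, 0.22.

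Among the long-chain synthetases, Acsl5, an enzyme of mitochondria and endoplasmic reticulum, was the member furthest below the untreated level with VPA. It measured 7.09 and 6.98 untreated, 6.33 and 6.80 with VPA and 7.06 and 6.93 with NaBu. Both VPA values were the lowest of the 6, and the difference was -0.47 (-0.77 and -0.17 in the replicates, 95% interval -0.90 to -0.04). Acsl4, which prefers arachidonate, measured 8.15 and 8.39 untreated, 8.22 and 8.58 with VPA and 8.29 and 8.62 with NaBu, with overlapping groups and a higher value in replicate 2 of each. Acsl6, an isoform known from brain, ranged from 6.05 to 6.53. Acsm3, a medium-chain synthetase of mitochondria that accepts butyrate, measured 3.17 and 3.35 untreated, 3.57 and 2.97 with VPA and 3.28 and 3.28 with NaBu. Its groups overlapped, and it was the only member under the 25th percentile of mean levels over all genes, 3.92, the level of one of the filters tried.

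Over the 7 measured genes of the carnitine shuttle the median difference was -0.06 with VPA and 0.05 with NaBu. Cpt1a, the outer-membrane transferase that sets the pace of long-chain oxidation, measured 8.78 and 8.79 untreated, 8.80 and 8.94 with VPA and 8.69 and 8.98 with NaBu. Its inner-membrane partner Cpt2 measured 7.32 and 7.60 untreated, 7.45 and 7.36 with VPA and 7.35 and 7.62 with NaBu. For neither gene did the treated values stand clear of the untreated on one side, apart from Cpt1a with VPA, where the lower VPA value lay just above the untreated pair. Slc22a5, the carnitine importer of the cell surface, measured 5.97 and 6.11 untreated, 6.12 and 5.91 with VPA and 5.72 and 6.12 with NaBu, again with overlap. Crat, which moves acetyl groups between coenzyme A and carnitine, measured 6.94 and 6.90 untreated, 6.82 and 6.84 with VPA and 6.88 and 7.08 with NaBu. Its VPA values were the lowest, by less than the NaBu samples differed from each other.

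Slc25a20, the translocase that carries acylcarnitines across the inner membrane, was dominated by replicate number. It measured 9.66 and 9.06 untreated, 9.46 and 8.78 with VPA and 9.76 and 8.98 with NaBu. Replicate 2 was lower by about the same step in each group, so that the VPA difference of -0.24 (-0.20 and -0.28 in the replicates) had an unblocked interval from -1.09 to 0.62. With the replicate block the interval of this difference ran from -0.49 to 0.01. Without untreated replicate 1 or without VPA replicate 2 the unblocked value was 0.06 and 0.10, which sets unequal numbers of each replicate against each other, and with the replicate block it was -0.30 and -0.25. Of the other shuttle genes, Cpt1c, a neuronal isoform of the endoplasmic reticulum, ranged from 7.87 to 8.37. Crot, the peroxisomal octanoyltransferase, measured 8.65 and 8.66 untreated, 9.09 and 8.69 with VPA and 8.78 and 8.66 with NaBu. Both VPA values of Crot were above both untreated ones, by 0.45 in replicate 1 and 0.03 in replicate 2, and the 95% interval of the mean difference of 0.24 ran from -0.15 to 0.63.

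The acyl-CoA dehydrogenases open each turn of the cycle, each for its own chain length. Acadl, for long chains, measured 7.55 and 7.72 untreated, 8.12 and 8.001 with VPA and 7.71 and 8.06 with NaBu. Both VPA values were above both untreated ones, and the difference of 0.42 (0.56 and 0.28 in the replicates) had a 95% interval from 0.04 to 0.80. Acadvl, for very long chains, measured 7.43 and 7.34 untreated, 7.95 and 7.27 with VPA and 7.65 and 7.17 with NaBu, highest on VPA replicate 1. Acadm, for medium chains, measured 9.97 and 9.77 untreated, 10.06 and 9.62 with VPA and 9.92 and 9.69 with NaBu, and its groups overlapped. Acads, the dehydrogenase that acts on butyryl-CoA, measured 8.61 and 8.43 untreated, 8.58 and 8.24 with VPA and 8.27 and 8.24 with NaBu. Both NaBu values of Acads lay below both untreated values, as was so for 4 of the 44 members and 2228 of 19938 genes.

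Acadsb and Ivd, dehydrogenases of branched chains, had their highest value on VPA replicate 1. Acadsb, which acts on short branched acyl-CoAs, measured 7.36 and 7.20 untreated, 7.85 and 7.31 with VPA and 7.50 and 7.24 with NaBu. The VPA values overlapped the untreated ones, although each was above the untreated sample of its own number, by 0.49 and 0.11. Ivd, for isovaleryl-CoA of leucine breakdown, measured 8.19 and 7.90 untreated, 8.33 and 7.97 with VPA and 8.24 and 8.17 with NaBu, with overlap throughout. Acad8, for isobutyryl-CoA, ranged from 8.01 to 8.49, Acad9, also a complex I assembly factor, from 8.88 to 9.32, Acad10 from 6.32 to 6.62 and Acad11 from 7.96 to 8.51. Over the 10 dehydrogenases the median VPA difference was 0.16 in replicate 1 and -0.0033 in replicate 2.

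Electron transfer flavoprotein takes the electrons from all these dehydrogenases and passes them to ubiquinone through Etfdh. Etfa, its alpha subunit, measured 9.89 and 10.00 untreated, 10.26 and 10.14 with VPA and 10.08 and 9.98 with NaBu. Both VPA values were above all 4 others, by a mean of 0.25 over untreated cells. The beta subunit Etfb measured 8.96 and 9.19 untreated, 9.11 and 9.05 with VPA and 9.05 and 9.07 with NaBu, within the untreated range. Etfdh measured 8.61 and 8.63 untreated, 8.74 and 8.87 with VPA and 8.54 and 8.81 with NaBu. The VPA values of Etfdh were above the untreated pair, and the NaBu values lay on either side of it.

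Among the later steps of the cycle VPA values lay on both sides of the untreated ones. Echs1, the short-chain enoyl-CoA hydratase that acts on crotonyl-CoA from butyrate, measured 8.70 and 8.81 untreated, 8.34 and 8.41 with VPA and 8.53 and 8.62 with NaBu. The 3 groups did not overlap, with VPA lowest and untreated highest, and the VPA difference of -0.38 was nearly the same in the replicates (-0.36 and -0.41, 95% interval -0.66 to -0.10). Acat1, the mitochondrial acetoacetyl-CoA thiolase that serves both ketone bodies and isoleucine, measured 7.79 and 8.11 untreated, 8.53 and 8.29 with VPA and 7.99 and 8.43 with NaBu. Both VPA values were above the untreated ones, by 0.74 and 0.18, with a 95% interval of the mean difference from -0.02 to 0.95. With the replicate block the interval ran from 0.077 to 0.845.

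Hadha and Hadhb encode the alpha and beta subunits of the trifunctional protein, which takes long chains through the last 3 steps. Hadha measured 9.42 and 9.35 untreated, 9.88 and 9.42 with VPA and 9.59 and 9.44 with NaBu. Hadhb measured 9.27 and 8.98 untreated, 9.45 and 8.95 with VPA and 9.31 and 8.75 with NaBu. Hadha was high on VPA replicate 1, and Hadhb followed the replicate number in every group. A further Hadhb probeset gave VPA differences of 0.21 and -0.03 in the replicates where the chosen one gave 0.18 and -0.04. Hadh, the dehydrogenase for shorter hydroxyacyl-CoAs, measured 10.32 and 10.39 untreated, 10.65 and 10.40 with VPA and 10.30 and 10.40 with NaBu, high on VPA replicate 1 alone. Acaa2, the medium-chain thiolase, ranged from 8.56 to 9.58 and had its 3 lowest values in replicate 2.

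Eci1 and Eci2, isomerases that move the double bond of unsaturated chains into place, lay lower with VPA in both replicates. Eci1 measured 8.01 and 7.88 untreated, 7.70 and 7.65 with VPA and 7.98 and 7.85 with NaBu. Eci2 measured 7.88 and 7.76 untreated, 7.65 and 7.50 with VPA and 7.84 and 7.51 with NaBu. The VPA values of Eci1 were the lowest of the 6 and differed from the untreated by -0.27, and those of Eci2 were below both untreated values by a mean of -0.24. Decr1, the reductase of the same branch, ranged from 7.49 to 7.89 with overlapping groups.

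Of the peroxisomal enzymes, Hsd17b4, the bifunctional protein for branched and very long chains, measured 9.42 and 9.67 untreated, 9.98 and 9.68 with VPA and 9.55 and 9.64 with NaBu. Its VPA values were the highest, although the replicate 2 value exceeded the untreated one by no more than 0.02. Ehhadh, the other bifunctional enzyme, measured 5.19 and 4.99 untreated, 6.08 and 4.95 with VPA and 5.38 and 4.70 with NaBu. Its VPA difference was 0.88 in replicate 1 and -0.04 in replicate 2. Acox3, an oxidase for branched chains, measured 6.38 and 6.30 untreated, 6.22 and 6.40 with VPA and 6.17 and 6.27 with NaBu, and the thiolase Acaa1a measured 6.72 and 6.47 untreated, 6.63 and 6.35 with VPA and 6.70 and 6.82 with NaBu. Both NaBu values of Acox3 were under the untreated pair, while Acaa1a overlapped.

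Thioesterases split acyl-CoAs back into acid and coenzyme A. Acot1, the cytosolic form, measured 6.31 and 6.37 untreated, 6.31 and 6.14 with VPA and 6.10 and 6.01 with NaBu. The NaBu values were the lowest, but Acot1 has a nearly identical neighbour in Acot2, so the probes of either may read both and these values are uncertain. Acot2, the mitochondrial form, ranged from 7.04 to 7.51, Acot7 from 8.76 to 9.10 and the peroxisomal Acot8 from 6.81 to 7.26. Bdh1, which interconverts the ketone bodies acetoacetate and hydroxybutyrate, measured 7.19 and 7.29 untreated, 7.39 and 7.19 with VPA and 7.23 and 7.08 with NaBu, with overlap between all groups.

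**Figure D2:**
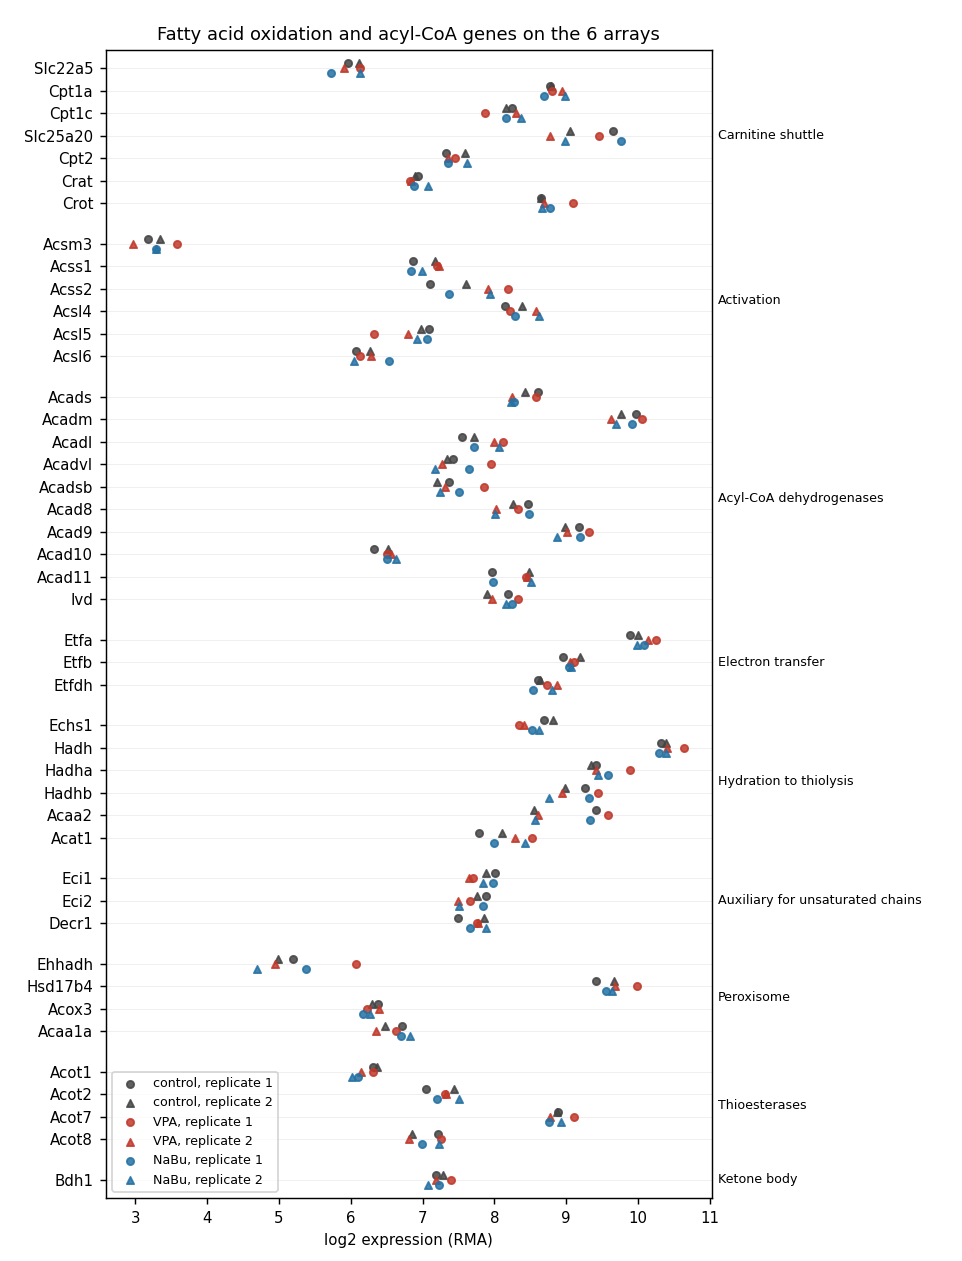
Log2 expression of the 44 genes (rows, ordered by role) on each of the 6 arrays, with colour for the group and marker shape for the replicate number. Acss2 and Acadl have both VPA points to the right of the untreated ones, and Acsl5 and Echs1 to the left.

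**Figure D3:**
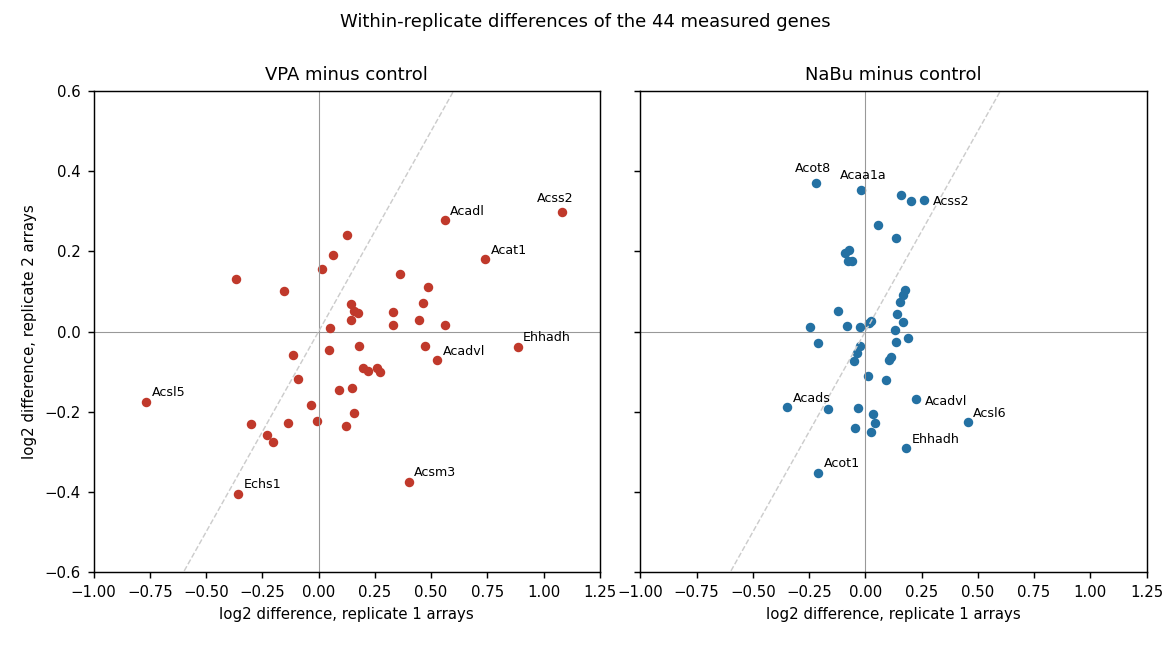
Difference from the untreated sample of the same number, in log2 units, in replicate 1 (horizontal) against replicate 2 (vertical), for VPA and for NaBu, where each point is 1 of the 44 genes, the dashed line marks equal differences and the axes have different scales. The VPA points spread more widely along the horizontal axis, with Acss2 at 1.08 and 0.30 and Ehhadh at 0.88 and -0.04.

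With NaBu no member differed from untreated cells by more than 0.5 in either direction, and only 76 of 19938 genes did. Acss2, Acat1 and Acadl again had the largest differences above untreated among members of 1 sign in both replicates, at 0.29, 0.26 and 0.25, and Acot1, Acads and Echs1 the largest below, at -0.28, -0.27 and -0.18 (n = 2 per group). Because VPA and NaBu were set against the same 2 untreated samples, the return of the same genes is not independent evidence. At an adjusted p under 0.05 limma called 0 members and 0% of all genes, and with the replicate block also 0 members and 0% of all genes. The adjusted p of every member rounded to 1 in limma. At an unadjusted p under 0.05 stood 0 members, against 1.56% of all genes, and with the replicate block Acot1 alone, against 4.59%.

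In both replicates 13 members were higher with NaBu, where 29.1% of all genes were, and 9 were lower, where 23.1% were. The other 22 differed in direction between the replicates. Both NaBu values lay above both untreated ones for 2 members and below for 4. Over all 19938 genes these counts were 2530 and 2228, a larger share. The median difference of the members was 0.03, beside 0.01 over all genes, and 0.02 and 0.01 in the replicates. It was -0.0014 after quantile normalization.

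The enzymes that meet butyrate directly gave mixed values. Acads, which oxidises butyryl-CoA, was lower by a mean of -0.27 (-0.35 and -0.19 in the replicates), with a 95% interval from -0.64 to 0.10 that includes 0. Echs1, the next enzyme, differed by -0.17 and -0.19 and by a mean of -0.18, with an interval from -0.46 to 0.10. Hadh, which follows, had NaBu values of 10.30 and 10.40 beside 10.32 and 10.39 untreated. The intervals of Acss2 (-0.32 to 0.91), Acat1 (-0.22 to 0.75) and Acadl (-0.13 to 0.63) also include 0, as do those of Acsl4 (-0.27 to 0.64) and Ivd (-0.25 to 0.57), which were higher in both replicates. For Acot1 the interval ran from -0.57 to 0.01, and from -0.54 to -0.02 with the replicate block. Eci2 differed by -0.14, which became 0.02 without NaBu replicate 2 (-0.05 with the replicate block), and Acox3 by -0.12.

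**Figure D4:**
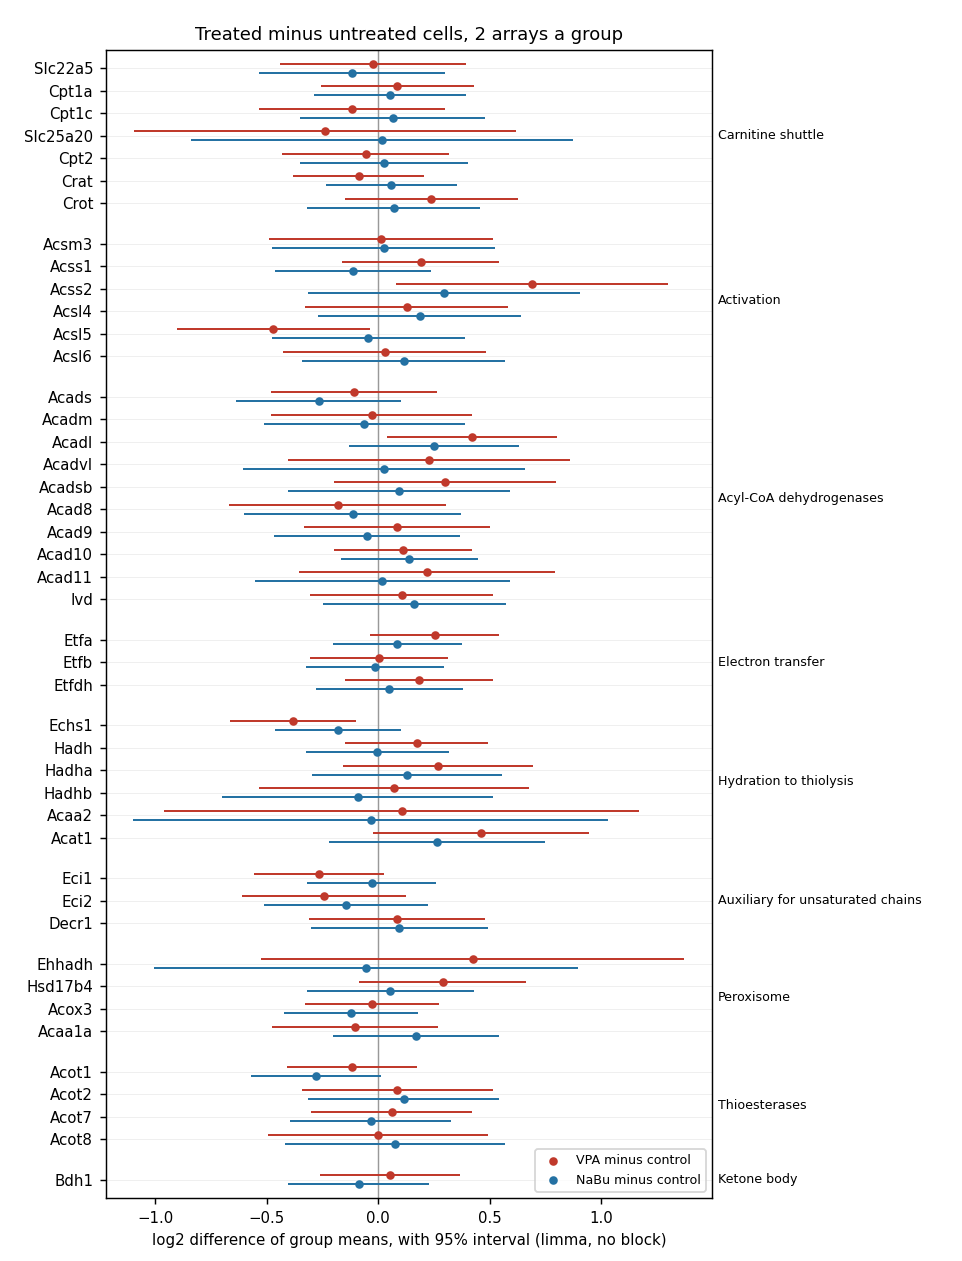
Differences between group means (points) in log2 units for VPA and NaBu against untreated cells, for each of the 44 genes. Bars are 95% limma intervals of the fit without the replicate block, not adjusted for the number of genes. For VPA the intervals of Acss2, Acadl, Acsl5 and Echs1 leave out 0, and for NaBu every interval shown includes 0.

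The compounds were also set against each other, at 0.5 mM VPA and 0.2 mM NaBu. Echs1, Eci1 and Acsl5 lay lower with VPA than with NaBu in both replicates without overlap, by -0.20, -0.24 and -0.43, and Acss1 and Hsd17b4 higher, by 0.30 and 0.23. In all, 5 of the 44 members were higher and 5 lower without overlap, beside 3199 and 2915 of 19938 genes, a larger share. The untreated samples do not enter these differences. Limma called 0 members and 0% of all genes at an adjusted p under 0.05 in this comparison, where the smallest adjusted p of a member was 0.998. With the replicate block it called 0 members and 0% of all genes, with a smallest adjusted p of 0.428. At an unadjusted p under 0.05 stood 0 members against 3.63% of all genes, and 4 with the replicate block (Ehhadh and Acss1 higher, Acsl5 and Slc25a20 lower) against 10.8%. The unblocked 95% intervals were -0.86 to 0.01 for Acsl5 and -0.05 to 0.65 for Acss1. With the replicate block they were -0.80 to -0.05 and 0.03 to 0.57, which leave out 0. Neither gene passed the adjusted threshold in either fit, so that neither a difference nor its absence was shown.

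Higher with VPA than with NaBu in both replicates were 16 members, where 27.5% of all genes were, and 9 were lower, where 28.6% were. The median difference was 0.09 over the members and 0.00 over all genes, with 0.15 in replicate 1 and -0.04 in replicate 2, and it was -0.02 without VPA replicate 1 (-0.03 with the replicate block). Ehhadh had the largest mean difference, 0.48 (0.70 and 0.25), and Acadsb (0.21) and Acadvl (0.20) were also higher in both replicates. Without VPA replicate 1 the unblocked values of these 3 genes were -0.09, -0.06 and -0.14, from a replicate 2 array set against the mean of both NaBu replicates, for genes whose replicate 2 arrays lay lower in every group. With the replicate block they were 0.14, 0.04 and -0.0006. Acadvl was -0.04 without NaBu replicate 2 and 0.15 with the block. Slc25a20 stood at -0.26, at 0.08 without VPA replicate 2 and at 0.13 without NaBu replicate 1, and with the block these were -0.26 and -0.19. Acaa1a was lower by -0.27 (-0.07 and -0.47). Without VPA replicate 2 and with the replicate block, limma called Acss2 higher and Acsl5 lower, 2 members beside 1.82% of all genes.

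Replicate number separated some members more than treatment did. The mean of the replicate 2 arrays lay below that of the replicate 1 arrays by -0.87 for Acaa2, -0.69 for Slc25a20, -0.67 for Ehhadh, -0.45 for Hadhb and -0.42 for Acadvl, and above it by 0.36 for Acad11 and 0.31 for Acsl4. Each of these 7 genes kept its direction in all 3 groups. In all, 14 of the 44 members (31.8%) were lower on replicate 2 in every group, beside 23.5% of all genes, and among the 10 dehydrogenases 7 were. The size of the replicate difference exceeded that of the VPA difference for 27 members (61.4%, all genes 53.7%) and that of the NaBu difference for 29 (65.9%, all genes 62.2%). The fibroblast markers moved with replicate number as well, as their levels by array show, and their part in these differences was not tested.

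Promoters of the members were taken from RefSeq's mouse assembly GRCm38.p6, as the 250 bases before each start, and 38 of the 44 measured genes had an entry. Acat1, Acad9, Hsd17b4, Crat, Decr1 and Acaa2 had none. The sequences of Acss2 and Acadl are shown because their VPA values lay above the untreated ones without overlap, that of Echs1 because its groups did not overlap, that of Acads because it acts on butyryl-CoA, and that of Hadha because Hadhb starts from the same stretch on the other strand. They lie at chr2:155517793-155518042 (plus strand), chr1:66863310-66863559 (minus), chr7:140116422-140116671 (minus), chr5:115119347-115119596 (minus) and chr5:30154981-30155230 (minus). The window of Hadhb, chr5:30155003-30155252 on the plus strand, overlaps the last of these. Each is printed 5′ to 3′, with capitals for the GC box GGGCGG or its reverse complement CCGCCC and for CCAAT or its reverse complement ATTGG.
Acss2: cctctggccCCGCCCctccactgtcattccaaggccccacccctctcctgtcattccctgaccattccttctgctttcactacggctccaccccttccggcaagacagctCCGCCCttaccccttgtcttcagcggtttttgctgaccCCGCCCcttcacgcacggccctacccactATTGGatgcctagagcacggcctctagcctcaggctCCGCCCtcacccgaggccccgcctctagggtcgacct
Acadl: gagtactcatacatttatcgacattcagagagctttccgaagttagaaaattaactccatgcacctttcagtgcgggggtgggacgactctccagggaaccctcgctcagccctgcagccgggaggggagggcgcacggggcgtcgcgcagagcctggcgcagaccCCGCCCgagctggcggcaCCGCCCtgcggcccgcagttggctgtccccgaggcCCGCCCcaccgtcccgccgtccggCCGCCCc
Echs1: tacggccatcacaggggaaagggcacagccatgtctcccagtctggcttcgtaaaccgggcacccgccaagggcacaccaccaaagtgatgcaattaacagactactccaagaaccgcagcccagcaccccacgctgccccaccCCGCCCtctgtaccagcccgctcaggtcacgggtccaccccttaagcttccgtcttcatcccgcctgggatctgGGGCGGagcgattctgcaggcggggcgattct
Acads: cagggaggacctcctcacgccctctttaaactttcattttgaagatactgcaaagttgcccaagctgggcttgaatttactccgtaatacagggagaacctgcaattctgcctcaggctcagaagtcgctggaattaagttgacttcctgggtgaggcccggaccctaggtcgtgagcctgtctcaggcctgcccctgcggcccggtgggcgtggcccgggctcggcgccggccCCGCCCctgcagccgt
Hadha: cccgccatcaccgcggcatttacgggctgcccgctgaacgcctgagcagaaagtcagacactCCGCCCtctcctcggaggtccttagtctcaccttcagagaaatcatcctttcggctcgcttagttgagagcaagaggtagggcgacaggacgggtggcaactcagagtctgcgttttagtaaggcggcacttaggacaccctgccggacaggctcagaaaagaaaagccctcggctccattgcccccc

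The GC box, the letters bound by Sp1-type factors, occurred on either strand in 27 of the 38 promoters (71.1%), beside 35.4% of the 27025 genes in the table, which include genes of every kind. CCAAT occurred in 20 (52.6%, all genes 37.5%). The promoter of Acss2 held both, with 4 GC boxes, and those of Acadl, Echs1, Acads and Hadha held the GC box alone, so that genes on both sides of the untreated level shared it. The median promoter of a member was 59.2% G or C with 13 CpG pairs, against 52.8% and 6 over all genes. Response elements tied to lipid genes were searched on both strands with exact letters. The PPAR-type repeat AGGTCANAGGTCA was found in 0 of the 38 (0.0407% of all genes), the estrogen-related receptor element TCAAGGTCA in that of Acsl6 (2.63%, all genes 0.422%) and the sterol element TCACNCCAC in that of Ehhadh (2.63%, all genes 1.22%). These matches describe letters in a window and were not tested for binding. The exact PPAR-type repeat occurred in only 11 of 27025 genes, so 0 of 38 cannot show that such elements are missing.

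Related genes of the pathway were read from a further list of 90 symbols, of which 83 were measured. They cover nuclear receptors and coactivators, uptake, the malonyl-CoA switch, carnitine synthesis, further synthetases, peroxisomal proteins and ketone bodies. Limma called 0 of the 83 in each comparison at an adjusted p under 0.05. Unadjusted, 4 of the 83 stood under 0.05 with VPA, 4 with NaBu and 1 between the compounds, where the shares of all genes were 4.92%, 1.56% and 3.63%. With the replicate block these counts were 11, 7 and 5, beside 13.2%, 4.59% and 10.8% of all genes. In both replicates 28 were higher and 22 lower with VPA (32% and 28% of all genes), so that the VPA counts lay near the background, and 32 were higher and 19 lower with NaBu (29.1% and 23.1% of all genes). The median difference was 0.02 for VPA and 0.03 for NaBu. Both VPA values lay above both untreated ones for 17 of the 83 and below for 12, beside 3813 and 3107 of 19938 genes. For NaBu these counts were 19 and 6, beside 2530 and 2228.

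Abcd2 and Hacl1, both peroxisomal, stood furthest above untreated cells with VPA among genes of that list higher in both replicates. Abcd2, which imports very long chains into peroxisomes, measured 4.60 and 4.11 untreated, 5.48 and 4.67 with VPA and 4.80 and 4.65 with NaBu. Both VPA values were above both untreated ones, by 0.88 and 0.56. Hacl1, which shortens phytanic acid after its first oxidation, measured 7.75 and 8.12 untreated, 8.54 and 8.26 with VPA and 8.002 and 8.25 with NaBu, with the VPA pair highest. Slc27a6, a fatty acid transporter, measured 3.20 and 3.38 untreated, 3.78 and 3.59 with VPA and 3.39 and 3.35 with NaBu. Its VPA values were the highest, by a mean of 0.39 over untreated cells. All its values lay under 3.92, the 25th percentile of mean levels over all genes.

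On the lower side with VPA were the thioesterase Acot10 (-0.38), the transporter Slc27a3 (-0.31) and the oxidase-like Acoxl (-0.30). Acot10 measured 6.96 and 6.79 untreated, 6.64 and 6.37 with VPA and 6.95 and 6.43 with NaBu. Slc27a3 measured 6.69 and 6.40 untreated, 6.20 and 6.28 with VPA and 6.64 and 6.52 with NaBu. Acoxl measured 5.42 and 5.10 untreated, 4.96 and 4.97 with VPA and 5.31 and 5.03 with NaBu. For each of these genes both VPA values lay under both untreated ones.

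With NaBu, the nuclear receptor Nr2f2 was higher by 0.38, Abcd2 by 0.37 and Echdc1, an enzyme that removes malformed acyl-CoAs, by 0.37. Nr2f2 measured 6.04 and 5.89 untreated, 6.04 and 6.36 with VPA and 6.30 and 6.40 with NaBu. Echdc1 measured 5.71 and 6.23 untreated, 5.75 and 6.39 with VPA and 6.15 and 6.53 with NaBu. The NaBu values of Nr2f2 stood clear of the untreated pair, and those of Echdc1 overlapped it. Lower with NaBu were the synthetase Acsbg2 (-0.46), the isomerase Eci3 (-0.27) and the thioesterase Acot3 (-0.24). Acsbg2 measured 4.46 and 4.31 untreated, 4.05 and 4.17 with VPA and 3.99 and 3.87 with NaBu. Eci3 measured 3.58 and 3.66 untreated, 3.55 and 3.49 with VPA and 3.39 and 3.29 with NaBu, and Acot3 measured 3.28 and 3.47 untreated, 3.08 and 3.14 with VPA and 3.24 and 3.02 with NaBu. The NaBu values of all 3 lay under the untreated ones. Every value of Eci3 and Acot3 was under 3.92, the 25th percentile of mean levels over all genes.

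Receptors and coactivators that drive these genes in other tissues were on the same list. Ppara, the fatty acid receptor of liver, measured 4.30 and 4.41 untreated, 4.59 and 4.38 with VPA and 4.47 and 4.52 with NaBu. Esrra, the estrogen-related receptor of oxidative tissues, measured 6.83 and 6.92 untreated, 6.80 and 6.64 with VPA and 6.56 and 6.74 with NaBu. The Esrra values of both treatments lay under the same untreated pair, by -0.15 with VPA and -0.22 with NaBu. The Ppara values overlapped with VPA but not with NaBu, where they were higher by 0.14. Of the 10 receptors and coactivators listed, 3 lay above and 3 below untreated without overlap with VPA (3813 and 3107 of 19938 genes). For NaBu these counts were 3 and 1 (2530 and 2228 of 19938 genes). The coactivator Ppargc1a ranged from 3.23 to 3.46, under the 25th percentile of mean levels over all genes, 3.92.

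Markers of other tissues in which fatty acid oxidation is prominent were read as well. The mean level ran from 3.73 to 3.84 for 6 hepatocyte and visceral endoderm genes, from 5.004 to 5.22 for 5 muscle genes, from 4.24 to 4.96 for 2 brown fat genes and from 3.82 to 4.09 for 2 white fat genes.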

How the data were processed

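RNA of 6 samples (3 groups of 2) was read on 1-colour Affymetrix whole-transcript arrays, 1 per sample. Per the submitters' processing notes, the authors ran RMA within Affymetrix Expression Console 1.1, and what they deposited is log2 expression per probeset. Neither its settings nor a genome build is stated in those notes. The number of arrays limits the precision.

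Of 35556 probesets, 21789 carried a single symbol in the platform annotation and gave 19938 genes. The test was limma 3.58.1 under R 4.3.3 (lmFit with eBayes, 1 mean per group over 6 arrays, 3 residual degrees of freedom), with Benjamini-Hochberg adjustment over all genes at 0.05. An exact permutation test of 2 against 2 cannot go below p = 0.333 and was not used. The procedure was run on simulated data with independent noise on each array and no replicate effect. This checked only that planted differences were recovered on average.

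Whether replicate numbers pair samples was read from the values: deviations from group means correlated across genes, between same-numbered arrays, with r = 0.558 (untreated and VPA), 0.693 (untreated and NaBu) and 0.567 (VPA and NaBu). A fit with a replicate block (2 residual degrees of freedom) stands beside the unblocked one. Intervals are those of the unblocked fit unless the block is named, and none is adjusted for the number of genes.

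The members and lists were chosen with earlier results of these data known. Values in every sample are given for 20 members listed for their part in handling butyrate or valproate or as a gate of the pathway, and for the 5 highest and 5 lowest members per comparison with 1 sign in both replicates, and of related genes for the 3 highest and 3 lowest differences per compound. Ppara, Esrra, Ppargc1a, Acad11, Acaa2, Crot and Cpt1c were named outside that rule. Alternatives were the replicate block, median centring, quantile normalization, level filters, means over probesets, other eBayes settings, only the arrays compared, and leaving out each array.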

Additional observations from a re-analysis of the deposited data

How the results depend on the processing

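Of 839 values recomputed under 14 alternatives and 6 more chosen after the data were seen (leaving out each array with the replicate block), 809 kept their direction and side of the threshold or moved by less than the replicate spread. That count says little of stability, because several alternatives cannot change a gene's difference in this design. They are the replicate block on all arrays, the level filters, other eBayes settings, only the arrays compared, and leaving out an uncompared array. With the replicate block on all arrays 0 members were called in each comparison. With the block and without untreated replicate 2, limma called 7 genes for VPA, 1 for NaBu and 1 for VPA against NaBu, and without untreated replicate 1 it called 1 for VPA against NaBu, with 0 members among them. With the block and without VPA replicate 2 it called 774 genes, 4 members and 3 related genes for VPA, and 363, 2 and 1 for VPA against NaBu. This fit has 1 residual degree of freedom, and the cause was not tested. The median of the members ran from -0.056 to 0.13 for VPA when an array was left out. For NaBu it was -0.0014 after quantile normalization and -0.054, 0.072, 0.096 and -0.014 with the block and without untreated replicate 1, untreated replicate 2, NaBu replicate 1 and NaBu replicate 2. Without the block, leaving out an array turned the sign of 5 genes: Slc25a20 for VPA (-0.58 to 0.10), Eci2 for NaBu (-0.31 to 0.017) and, for VPA against NaBu, Ehhadh (-0.087 to 1.04), Acadsb (-0.063 to 0.48), Acadvl (-0.14 to 0.54) and Slc25a20 (-0.64 to 0.13). These fits set unequal numbers of each replicate against each other, and with the block Acadvl alone turned (-0.0006 without VPA replicate 1). The other members chosen by the size of their difference kept its sign under all 20 alternatives. They had been chosen among members of 1 sign in both replicates, which favours this outcome. Of all 44 members, 12 changed sign for VPA without VPA replicate 1 and 18 for NaBu without NaBu replicate 2, both without the block. With 2 arrays a group, leaving one out leaves a lone sample that is assumed to vary like the others.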
